A study of Mus musculus with 6 samples.

Results

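Esr1, the gene of estrogen receptor alpha, and 4 genes that estrogen is known to induce, Pgr, Greb1, Ccnd1 and Areg, were taken by name from the comparison of p63-excised with p63-intact mouse skin tumours. All 5 of 5 were found, as ESR1, PGR, GREB1, CCND1 and AREG, among the 16381 entries of the authors' deposited table. The genes were taken by name and not by a cut on measured values, but with earlier results of these data known. The choice was made because the p63-excised tumours had also received tamoxifen, a ligand of the estrogen receptor. The label holds as a list of known estrogen targets, but the 5 genes did not move in 1 direction, and none passed the test.

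Gene expression was read from Illumina bead arrays, where labelled copies of the tumour RNA bind to short probes. Cutaneous squamous cell carcinomas had been raised with the carcinogen DMBA in mice of mixed C57BL/6 and CD1 background that were p53+/- and p63L/L and carried K14-CreER. A disaggregated primary tumour was transplanted into Nude mice, which lack a thymus, and grew there for 13 days. The p63-excised group (3 arrays) was then given tamoxifen and the p63-intact group (3 arrays) vehicle on each of 5 days, and whole tumours were taken 1 to 3 days after the last dose. Both groups carry p53+/-, the loxP alleles of p63 and the Cre transgene, so the drug and the excision cannot be told apart in any value given here. The keratin 14 promoter limits Cre to tumour cells that use it, and stromal cells of the host are not excised. The labels number the tumours without saying that they grew in separate mice or came from separate primary tumours, and p-values then reflect only how far these samples differ, which may be technical.

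Estrogen receptor alpha is a nuclear receptor that, once it has bound estradiol, sits on DNA at estrogen response elements or joins other factors already bound there. Pgr, which encodes the progesterone receptor, and Greb1, a coactivator gene, are textbook direct targets in breast and uterus. Ccnd1 encodes cyclin D1, which opens the G1 phase with its kinases, and Areg encodes amphiregulin, a ligand of the EGF receptor. Tamoxifen competes with estradiol for the receptor. It blocks estrogen targets in breast tissue and can act as a partial agonist in the uterus. CreER is itself a fusion of Cre with a ligand-binding domain of the estrogen receptor. Whether the Esr1 probe could read that transgene is not stated in the sources used here.

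Promoter windows of Esr1, Pgr, Greb1 and Areg were found in RefSeq (GRCm38.p6), 6 windows for the 4 genes, and none for Ccnd1. The 250 bases before each start were searched on both strands for the full estrogen response element (a palindrome of 2 half-sites), its half-site AGGTCA, the cAMP response element TGACGTCA, the AP-1 site TGANTCA, the GC box GGGCGG and the TATA box TATAAA. None of the 6 windows held the full element, which 0.0639% of 32851 such windows held. Greb1 held 1 half-site, from -88 to -83 counted from the start, a motif in 14.0% of windows. Areg held the cAMP response element from -61 to -54 (in 1.55% of windows), a GC box from -52 to -47 (32.7%) and a TATA box from -31 to -26 (12.4%). Pgr held a GC box and a TATA sequence on the reverse strand, and neither Esr1 window held any of these motifs. A match describes letters in a window and is not a site of binding. The Areg and Greb1 windows are shown, Areg because its change was the largest of the 5 and Greb1 because it alone held the half-site. Capitals mark the cAMP response element and the TATA box of Areg and the half-site of Greb1.
Areg, chr5:91139349-91139598, plus strand: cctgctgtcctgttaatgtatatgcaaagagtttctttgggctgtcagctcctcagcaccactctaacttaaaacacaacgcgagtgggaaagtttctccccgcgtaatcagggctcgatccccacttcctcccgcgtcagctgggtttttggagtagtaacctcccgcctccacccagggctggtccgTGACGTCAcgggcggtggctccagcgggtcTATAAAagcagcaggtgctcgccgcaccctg
Greb1, chr12:16800887-16801136, minus strand: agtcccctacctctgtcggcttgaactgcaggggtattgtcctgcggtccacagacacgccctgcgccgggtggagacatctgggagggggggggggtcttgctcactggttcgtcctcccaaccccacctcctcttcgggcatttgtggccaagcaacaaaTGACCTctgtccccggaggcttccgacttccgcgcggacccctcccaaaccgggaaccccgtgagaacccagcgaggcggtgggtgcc

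The files give signals per array only by probe number and do not pair probes with genes. The values of the 5 genes therefore come from the authors' deposited table, as 1 mean level and 1 change each, and no value per tumour can be printed for them. Changes are read as excised over intact from the name of that table, since its header does not state the direction. The table lists entries with an unadjusted p up to 0.462. Its p-values were given a Benjamini-Hochberg adjustment that counts all 45281 probes of the array as tests. At 0.05, 190 entries passed, which is 1.16% of those listed, 0.659% higher and 0.501% lower, against 0 of the 5 genes. With the listed entries alone as tests, 2.97% passed, and again 0 of the 5. That adjustment is lenient, because entries with a higher p are not listed and so are not counted as tests. Positive changes made up 51.0% and negative ones 49.0% of listed entries, against 3 and 2 of the 5 genes. In a limma fit of the probes, which carry no gene names, 4.4% of 13727 tested probes passed. The error printed beside each log2 change is the standard error implied by the change and its t, and 95% intervals use 6.69 degrees of freedom, which the listed t and p share. Detected probes ran from 11964 to 14520 on the p63-excised arrays and from 13757 to 16096 on the p63-intact arrays. For Trp63, whose exons were excised, the change was -0.25 ± 0.11 in log2 (implied SE, p = 0.0639) in the authors' deposited table. The sources used here do not state which exons its probe reads, and the value does not check the labels.

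The receptor gene and its direct targets Pgr and Greb1 lay close to the bottom of the measured range, with listed signed folds of 1.05, 1.08 and -1.06 by the authors' deposited table. In the authors' deposited table Esr1 had a mean log2 level of 4.82 over both groups, where the lowest listed level is 4.62 and the median listed level 4.94. Its log2 change was 0.06 ± 0.05 (implied SE, 95% interval -0.06 to 0.18, p = 0.281) in the authors' deposited table. Esr1 was therefore neither higher nor lower beyond the error.

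Pgr, the progesterone receptor gene, had a mean log2 level of 4.87 and a log2 change of 0.11 ± 0.06 (implied SE, 95% interval -0.04 to 0.26, p = 0.122) in the authors' deposited table. Greb1 had a mean log2 level of 4.85 and a log2 change of -0.09 ± 0.07 (implied SE, 95% interval -0.26 to 0.08, p = 0.246) in the authors' deposited table. The intervals of both genes include 0, and the signs of the 2 changes are opposite. Of entries listed in the authors' deposited table, 89.1% had a larger change in size than Esr1. The shares were 67.9% for Greb1 and 55.8% for Pgr. Among listed entries within 0.1 of each gene's own mean level, the shares were 79.7% for Esr1, 47.5% for Greb1 and 32.1% for Pgr. Entries with a p over 0.462, whose changes are small for their error, are not listed. All these shares therefore hold for listed entries only.

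These narrow intervals belong to a part of the scale where few genes of any kind moved. Among the 9287 entries with a mean log2 level under 5 in the authors' deposited table, log2 changes ran from -0.47 to 0.39 and 1 entry passed the test. From a mean level of 5.5 to 7 the changes ran from -3.36 to 3.84, and 104 of 2429 entries passed. Within 0.1 of the level of Esr1 lay 7399 entries of the authors' deposited table, with a median change in size of 0.09. Pgr and Greb1, at 30.4 and 23.5 percent of the way up the ranked levels of the authors' deposited table, and Esr1, at 13.8 percent, sit in the same dense band. On the arrays themselves, 13727 of 45281 probes were detected on at least 3 arrays. Whether the probes of Esr1, Pgr and Greb1 were among them is not known here, so a fall of these transcripts could not be told from a gene that was already at background.

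**Figure D1:**
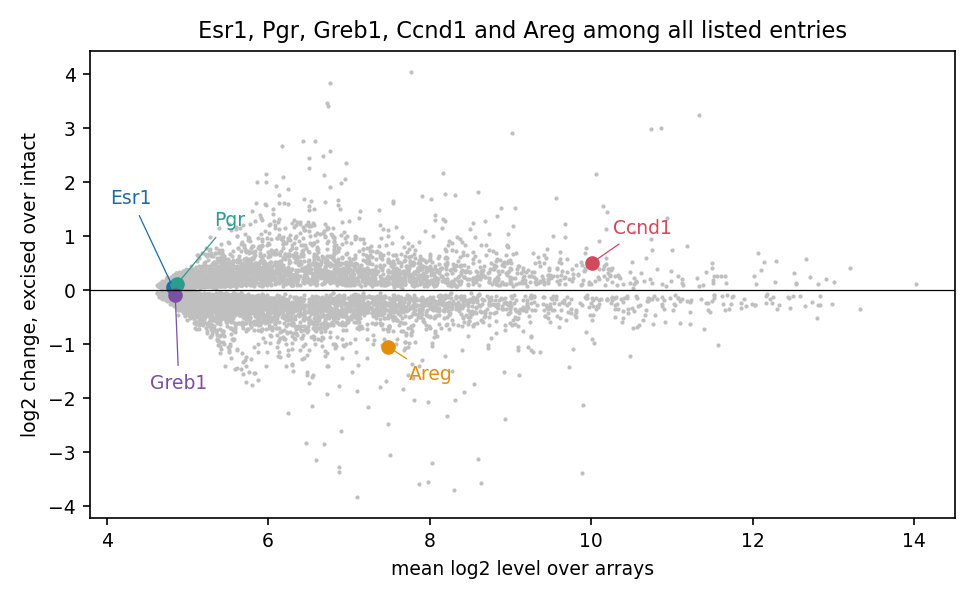
Log2 change (vertical axis, excised over intact) against mean log2 level (horizontal axis) for the 16381 entries of the authors' deposited table in grey, with the 5 genes in colour. Esr1, Pgr and Greb1 sit at 4.82 to 4.87 in the narrow left tip, while Ccnd1 at 10.01 and Areg at 7.49 lie where changes spread widely. Entries with p over 0.462 are not listed, which empties the band around 0.

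Areg had the largest change of the 5 in size, with a negative sign. It had a mean log2 level of 7.49, above 91.7 percent of the ranked levels, and a log2 change of -1.05 ± 0.40 (implied SE, 95% interval -2.01 to -0.09) in the authors' deposited table. The listed signed fold is -2.07, and 1.52% of entries of the authors' deposited table had a larger change in size. Among listed entries within 0.1 of its mean level, 4.74% had a larger one. The unadjusted p was 0.0362 and the Benjamini-Hochberg adjusted p 0.613 in the authors' deposited table, so Areg did not pass. Unadjusted p-values under 0.05 were listed for 19.9% of all entries of the authors' deposited table, and for 10.6% in the direction of Areg, against 1 of these 5 genes, a share near that background.

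The implied error of Areg was large among listed entries of like level. Of 190 entries within 0.1 of its mean level in the authors' deposited table, 186 had a smaller implied standard error, with a median of 0.13 over the 190. Entries with a p over 0.462 are not listed, and at a given change those have the larger errors. The rank of Areg among all entries of like level is therefore not known. At its own error, Areg would have needed a log2 change of 2.92 in size to pass over all tests. Which arrays make the error large cannot be seen without values per array.

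Ccnd1, the cyclin D1 gene, had a positive change. It had a mean log2 level of 10.01 and a log2 change of 0.51 ± 0.22 (implied SE, 95% interval -0.02 to 1.04) in the authors' deposited table, a listed fold of 1.42. Its unadjusted p was 0.058 and its Benjamini-Hochberg adjusted p 0.731 in the authors' deposited table, so it did not pass either. Of all entries of the authors' deposited table, 7.31% had a larger change in size. Of 37 listed entries within 0.1 of its level, 28 had a smaller implied error, with a median of 0.15 over the 37, and 24.3% a larger change in size. Ccnd1 therefore did not stand apart from these listed entries of like level in the size of its change.

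**Figure D2:**
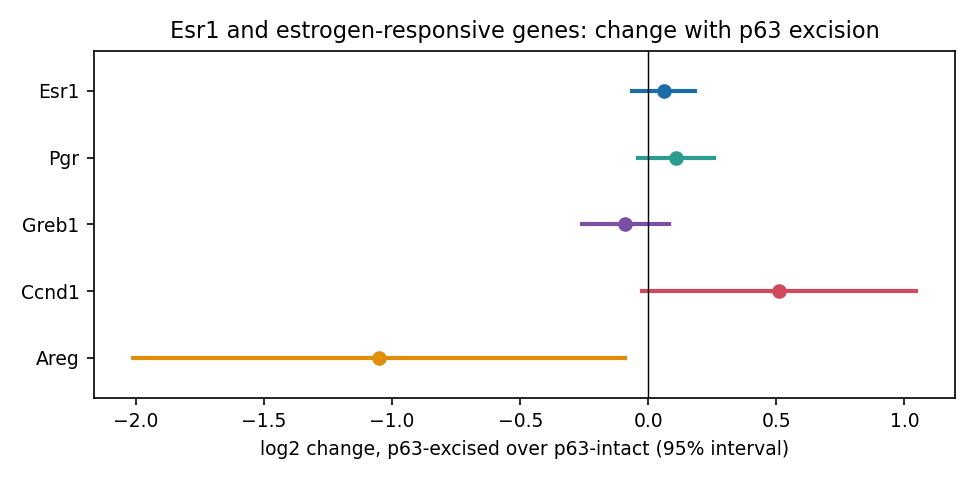
Log2 change (points) with the 95% interval implied by the change and t (lines) of the 5 genes in the authors' deposited table, excised over intact. The interval of Areg, -2.01 to -0.09, is the widest and the one of the 5 that leaves out 0 before adjustment, and Areg and Ccnd1 point in opposite directions.

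**Figure D3:**
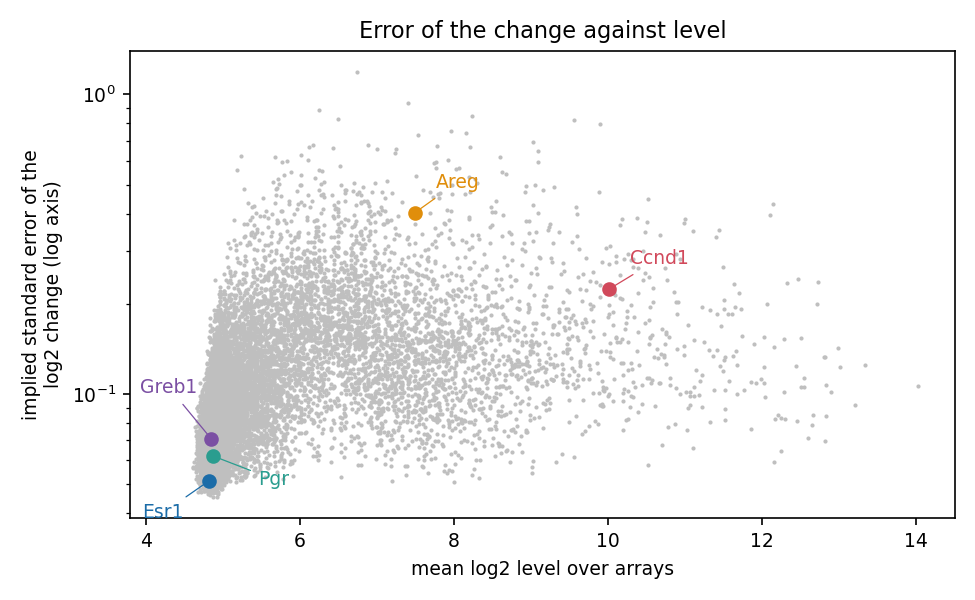
Standard error of the log2 change implied by the authors' deposited table (vertical log axis) against mean log2 level, over entries with t above 0.5 in size (grey). Among listed entries, Areg, at 0.40, lies near the top of its level, Ccnd1 at 0.22 above the middle, and Esr1, Pgr and Greb1 between 0.05 and 0.07 at the low end. Entries with p over 0.462 are not listed, and at a given change those have the larger errors.

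Other nuclear receptors of the family did not pass. Of 10 receptor genes, 4 were listed in the authors' deposited table, 3 positive and 1 negative, with a median log2 change of 0.09 against 0.05 for all listed entries. Beside Esr1 and Pgr these were Esrra, an orphan receptor gene of energy metabolism, at 0.19 (p = 0.126), and Esrrg, its relative, at -0.09 (p = 0.18) in the authors' deposited table. The other 6, among them Esr2, the gene of estrogen receptor beta, are not analysed here.

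Among 16 genes of receptor cofactors and partner factors, 9 were listed in the authors' deposited table, 4 positive and 5 negative, with a median of -0.04. Cited2, a gene of a CBP/p300-binding coactivator, rose by 1.13 ± 0.15 in log2 (implied SE, adjusted p = 0.0453) in the authors' deposited table. Tfap2c, encoding transcription factor AP-2 gamma, was at -0.52 (adjusted p = 0.16) and Ddx17, a helicase gene, at -0.44 (adjusted p = 0.503) by the authors' deposited table. Carm1, an arginine methyltransferase gene, was at 0.43, Nrip1, a corepressor gene that estrogen induces, at -0.10, and Med1, a Mediator subunit gene, at -0.11 in the authors' deposited table. Foxa1, the pioneer factor of the receptor in breast cells, lay at a mean log2 level of 4.85 with a change of 0.06 in the authors' deposited table, as near the bottom as Esr1.

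Of 26 further genes known to respond to estrogen in some tissue, 15 were listed in the authors' deposited table, 11 positive and 4 negative, with a median of 0.22. Only Wnt4, a ligand gene that progesterone and estrogen signalling use in breast and uterus, passed among the 15, with a rise of 1.29 ± 0.16 (implied SE, adjusted p = 0.0362) in the authors' deposited table. Unadjusted p-values under 0.05 were listed for 4 of the 15, all higher, against 9.31% of all entries in that direction. Beside Wnt4 these were Lcn2, an iron-carrier gene of inflammation, at 2.91 (adjusted p = 0.243), Ltf, the lactoferrin gene, at 3.41 (adjusted p = 0.527) and Myc, the growth regulator gene, at 0.26 (adjusted p = 0.431) by the authors' deposited table. Muc1, a mucin gene, was at 0.59 and Rara, a retinoic acid receptor gene, at 0.22 in the authors' deposited table, and neither passed. The large change of Ltf had an implied standard error of 1.19. At a mean log2 level of 5.5 or more, 3 of 5 listed genes of this list were higher with an unadjusted p under 0.05. Of all entries at that level, 925 of 4269 were. This list was written with results of these data known, and its counts say nothing particular to estrogen targets.

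Areg was set beside its own family. Of 11 EGF-family ligand genes, 6 were listed in the authors' deposited table, 3 positive and 3 negative, with a median of -0.005, and none passed. Epgn, the epigen gene, was at 0.11 ± 0.09 (implied SE) at a mean log2 level of 10.39 in the authors' deposited table. Egf, Tgfa, Nrg3 and Nrg4 lay between 4.80 and 4.93 in mean log2 level, with values of -0.13, -0.09, 0.13 and 0.08 for the log2 change, none past the test, by the authors' deposited table. Areg was thus the one listed ligand with an unadjusted p under 0.05, and the difference between ligands was not tested.

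Of 9 genes of EGF receptors, ligand-releasing enzymes and their regulators, 7 were listed, 5 positive and 2 negative, and none passed in the authors' deposited table. Errfi1, a feedback inhibitor gene of the EGF receptor, was at 0.82 ± 0.20 (implied SE, adjusted p = 0.253) and Erbb2, a receptor gene of the family, at 0.71 ± 0.25 (implied SE, adjusted p = 0.554) in the authors' deposited table. Egfr, the receptor that amphiregulin binds, was at 0.10 ± 0.07 (implied SE) at a mean log2 level of 7.02 in the authors' deposited table. Adam17, the enzyme gene that frees amphiregulin from the membrane, was at -0.10, Erbb4 at -0.07 and Rhbdf1, a regulator gene of that enzyme, at 0.10 in the authors' deposited table.

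Ccnd1 was set beside the G1 genes that work with it. Of 21 such genes, 14 were listed in the authors' deposited table, 7 positive and 7 negative, with a median of 0.02, and none passed. The inhibitor gene Cdkn2a, whose p16Ink4a product blocks the kinases of cyclin D and whose p19Arf product stabilises p53, was at 1.57 ± 0.24 (implied SE, adjusted p = 0.0725) in the authors' deposited table. The sources used here do not state which of the 2 transcripts its probe reads. Cdk2, the kinase gene of the next step, was at -0.45 ± 0.08 (implied SE, adjusted p = 0.121) in the authors' deposited table. Cdkn1c, another inhibitor gene, was at 0.77 (p = 0.0377), Rb1, the pocket protein gene that cyclin D kinases inactivate, at -0.37 (p = 0.0495) and Cdkn2c, an inhibitor gene, at 0.24 in the authors' deposited table. The other D-type cyclins, given as relatives of Ccnd1 after their values were seen, were Ccnd2 at -0.29 ± 0.20 and Ccnd3 at 0.33 ± 0.19 (implied SE) in the authors' deposited table. Of 8 proliferation markers 5 were listed in the authors' deposited table, 4 negative and 1 positive, with a median of -0.40. Rrm2, a nucleotide synthesis gene of S phase with the smallest p of them, was at 0.39 (p = 0.00648), Mki67 at -0.54 (p = 0.00967) and Ccnb1 at -0.43 (p = 0.021) in the authors' deposited table. Aurkb was at -0.40 (p = 0.0165) and Top2a at -0.28 (p = 0.211) in the authors' deposited table. The part of these markers in the Ccnd1 value was not tested.

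Enzyme genes that make or inactivate estrogens showed no member past the test. Of 14 such genes, 7 were listed in the authors' deposited table, 5 positive and 2 negative, with a median of 0.16. Hsd17b2, whose enzyme turns estradiol into the weaker estrone, was at 1.33 ± 0.28 (implied SE, p = 0.00218, adjusted p = 0.172) in the authors' deposited table. Hsd17b1, whose enzyme works in the opposite direction, was at -0.11 at a mean log2 level of 4.83 in the authors' deposited table. Hsd17b4 was at 0.22, Hsd17b12 at -0.50, the sulfotransferase gene Sult1a1 at 0.53 and the sulfatase gene Sts at 0.16 in the authors' deposited table.

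Tamoxifen also binds sterol-modifying enzymes outside the estrogen receptor. Of 6 genes on a list for sterol metabolism, 3 were listed in the authors' deposited table, all positive. Ebp, a sterol isomerase gene whose product is part of the binding site for antiestrogens, rose by 0.68 ± 0.09 (implied SE, adjusted p = 0.045) in the authors' deposited table. Dhcr7, whose enzyme completes that site, was at 0.38 ± 0.21 (implied SE) in the authors' deposited table. In all, 65 of 113 genes on the 9 lists were listed, and 3 of them, Cited2, Wnt4 and Ebp, passed, all higher, where 0.659% of all entries passed in that direction. These 3 lie at a mean log2 level of 5.5 or more, where 101 of 4269 entries passed in that direction. The 65 genes also include genes under that level, so the shares are not like for like. The lists were written with results of these data known, so this count says nothing particular to their genes. Under the lenient adjustment over the entries listed, which 2.97% of entries passed, Cdkn2a and Cdk2 passed as well in the authors' deposited table.

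**Figure D4:**
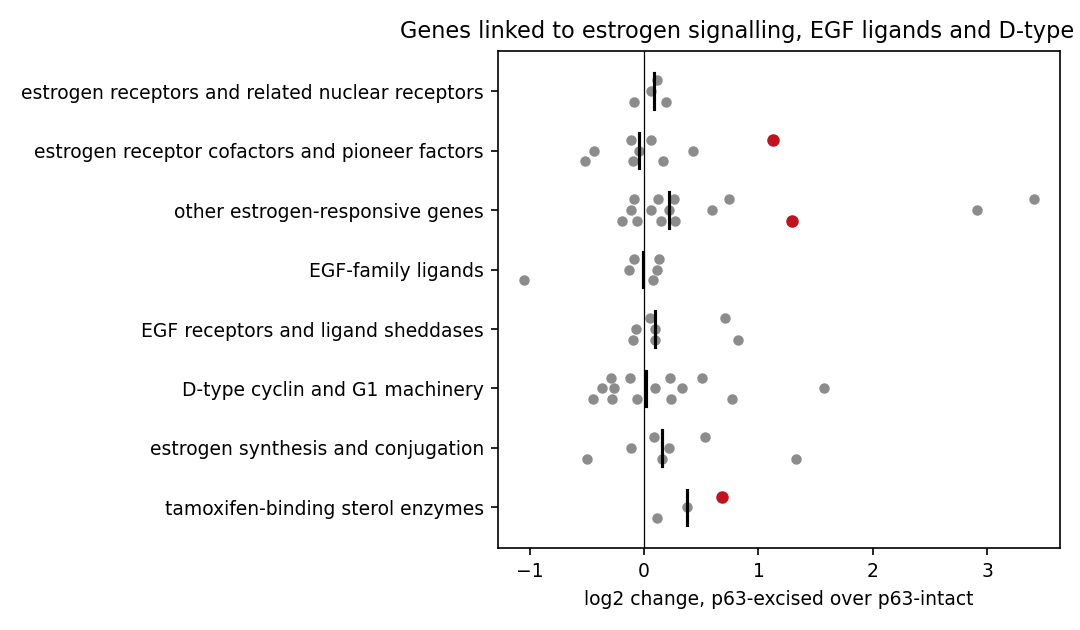
Log2 change (excised over intact) of each listed gene in 8 gene lists of the authors' deposited table, with the list median as a black line. Red points passed the Benjamini-Hochberg adjustment over 45281 tests: Cited2, Wnt4 and Ebp, at 1.13, 1.29 and 0.68. The point at -1.05 among EGF-family ligands is Areg.

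Markers of the labelled tissue were bright. The keratin genes of squamous epithelium Krt14, Krt5 and Krt6b lay at 14.02, 11.65 and 12.54 in mean log2 level, by the authors' deposited table. Of 9 squamous markers 6 were listed there, 4 positive and 2 negative, with a median of 0.13 for the log2 change. Sfn, the stratifin gene, had the smallest p of them, with a log2 change of -0.64 (p = 0.00809) by the authors' deposited table. Mammary secretory genes were listed for 5 of 9, with mean log2 levels of 4.82 to 5.22, no unadjusted p under 0.05 and a median of -0.06 for the log2 change, by the authors' deposited table. The milk protein genes Csn2 and Wap lay at 4.82 and 4.84 in mean log2 level, as low as Esr1 in the authors' deposited table. All 7 listed skeletal muscle genes were positive, with a median of 1.10, and fibroblast genes negative for 3 of 4 listed of 8, with a median of -0.50, in the authors' deposited table. Endothelial genes (3 of 6 listed) and adipocyte genes (4 of 8) had medians of -0.42 and -0.04 in the authors' deposited table. Myeloid genes (5 of 7) had a median of 0.04 there, 3 positive and 2 negative. Lyz2, a macrophage and neutrophil gene and 1 of the 2 negative, was at -1.73. No marker of these lists passed over all tests. Under the lenient adjustment over the entries listed, which 2.97% of entries passed, the muscle gene Des passed (1.40, adjusted p = 0.0379, authors' deposited table). Over listed entries with a mean level of 5.5 or more, likewise lenient, Des, Atp2a1, Lyz2, Rrm2, Sfn and Mki67 passed. At that setting 1019 of 4269 entries passed, so these calls say nothing particular to the markers. Their part in the Areg and Ccnd1 values was not tested. In whole tumours, fewer cells of a type and less RNA per cell cannot be told apart.

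**Figure D5:**
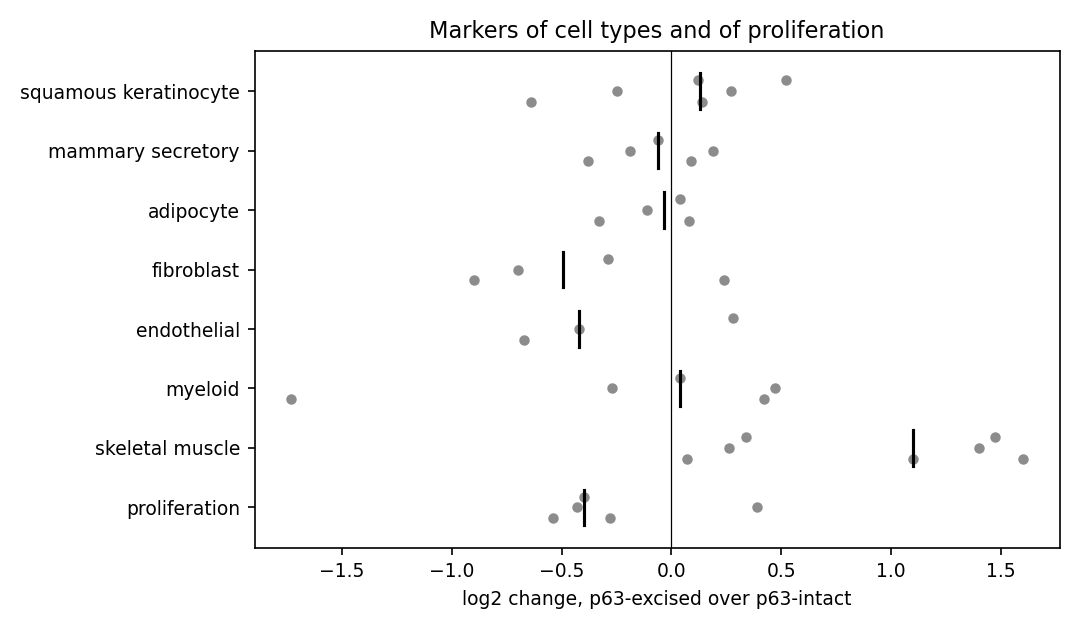
Log2 change (excised over intact) of each listed marker of cell types and proliferation in the authors' deposited table, with the list median as a black line. All 7 muscle markers lie above 0 with a median of 1.10, mammary secretory markers lie around 0, and none passed the adjustment over 45281 tests.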

How the data were processed

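RNA of 6 whole tumours was measured on Illumina bead arrays. The authors deposited, per the file headers, signal intensity values and detection p-values for 45281 probes, and a value table of log2 levels. Every array has the same mean intensity, 131.42, so some scaling preceded deposit. One more table compares the groups by gene name and holds, per the file headers, log2 changes and mean log2 levels, fold changes with a sign, unadjusted p-values, and t and log-odds as score columns. Its normalization and its step from probes to genes are not stated in the sources used here. R 2.12.0 is named in the submitters' processing notes.

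The 5 genes, the lists of other genes and the rule for naming genes (the 5 genes, Trp63, up to 6 entries with the smallest p per list, and entries past the test) were chosen with earlier results of these data known. Listed p-values were adjusted by Benjamini-Hochberg over all 45281 probes, the largest number of tests possible. Standard errors are the log2 change over t. Names matched directly or through an older symbol in RefSeq (3 genes). Lists are described by counts and medians, and some items that the rule takes are not reported here. Fgfr2, which the rule also takes, was at -1.00 in the authors' deposited table (adjusted p = 0.0281).

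Probe intensities were normalized with limma's neqc (offset 16). The 13727 probes with a detection p under 0.05 on at least 3 arrays were tested with lmFit and eBayes. The fit was also run on simulated normal noise, independent between arrays, which did not test the normalization or tumours of shared origin. In that fit 604 probes passed at 0.05, which is 4.4% of those tested. Tools were R 4.3.3, limma 3.58.1, Python 3.11.15, pandas 2.3.3 and scipy 1.17.1. The number of arrays limits the precision.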

Additional observations from a re-analysis of the deposited data

How the results depend on the processing

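None of the 5 genes passed when the adjustment ran over the 16381 entries listed or over the 4269 entries whose mean log2 level was 5.5 or more. Areg came to 0.222 and 0.0941 and Ccnd1 to 0.265 and 0.128 in adjusted p, and Esr1, Pgr and Greb1 to 0.334 to 0.415 over listed entries; they lie under that level. At an unadjusted p under 0.05 the count is 1. Both adjustments over listed entries are lenient, since entries with a p over 0.462 are not listed and so are not counted as tests. These settings let 486 and 1019 entries of the authors' deposited table pass in place of 190, 5 and 9 genes of the 9 lists around the 5 genes in place of 3, and 1 and 6 of the cell type and proliferation markers in place of 0. At a mean level of at least 5.5, Errfi1, Hsd17b2, Lcn2 and Tfap2c joined Cdkn2a and Cdk2. Probe counts moved more: in place of 604 (319 higher, 285 lower), 396 passed with normexp at an offset of 50, 344 without background correction, 380 in the authors' value table, 203 without a filter and 963 with array weights. Scaling to a common median left 50, 14 higher and 36 lower. Detection on all 6 arrays left 433. Leaving out each array in turn gave 216 to 654: 306, 216 and 216 without p63-intact 1, 2 and 3, and 362, 654 and 249 without p63-excised 1, 2 and 3. The causes were not tested. With the replicate block 1324 passed. Deviations of same-numbered tumours correlated at 0.34, 0.38 and -0.06. The labels do not say that equal numbers pair the tumours, and whether such tumours share more than a number was not tested. The fit of the 5 genes' own probes and its alternatives were not run, because the files do not name probes. Detection at the level of Esr1, Pgr and Greb1 could not be read from the value table, whose lowest value, 5.83, lies above their levels.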
